A study of Saccharomyces cerevisiae YPS1009 with 40 samples.

Results

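The 3 genes for glyceraldehyde-3-phosphate dehydrogenase in budding yeast, TDH1 (YJL052W), TDH2 (YJR009C) and TDH3 (YGR192C), were followed through log phase and the approach to quiescence in 5 haploid strains. They were picked by systematic name, and all 3 of 3 were found among the 6714 genes of the count table. All strains derive from YPS1009, a wild isolate from oak soil. 4 of them carry a whole extra copy of a single chromosome, namely YPS1009_Chr4, YPS1009_Chr12, YPS1009_Chr14 and YPS1009_Chr15, and the euploid haploid is what each was set against. All are MATa. The euploid and YPS1009_Chr12 strains carry a replacement of HO by a hygromycin marker (hoΔ::HphMX), and YPS1009_Chr4, YPS1009_Chr14 and YPS1009_Chr15 carry another HO allele (ho-Δ1), so for those 3 the extra chromosome and the HO allele cannot be told apart. Each karyotype is 1 strain. Cultures grew in the rich glucose medium YPD at 30 °C and were taken in log phase and at days 1, 3 and 7 (24, 72 and 168 h), with 2 biological replicates in each of 20 groups, or 40 libraries. None of the 3 genes lies on a duplicated chromosome, so each strain has 1 copy of each.

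Glyceraldehyde-3-phosphate dehydrogenase makes the energy-rich bisphosphoglycerate of lower glycolysis while reducing NAD, and it runs in reverse when cells make sugar from ethanol or acetate. The enzyme acts downstream of triose phosphate isomerase (TPI1) and upstream of phosphoglycerate kinase (PGK1). In yeast its isozymes come from separate genes. TDH3 is known as the main source of the enzyme in cells growing on glucose, TDH2 as a lesser companion with nearly the same protein, and TDH1 as the isozyme of non-growing cells and of cells under reductive stress. In batch culture, cells first ferment glucose, then respire the ethanol they made, and then arrest.

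By the RefSeq annotation of the S288c genome (R64), TDH1 lies on chromosome X at positions 338271 to 339269 on the forward strand, TDH2 on chromosome X at 453683 to 454681 on the reverse strand, and TDH3 on chromosome VII at 882812 to 883810 on the reverse strand. Each is 1 uninterrupted coding exon of 999 bases that overlaps no other protein-coding gene, so counts of the 3 can be compared with one another without a length correction. Over the 999 aligned bases, TDH2 and TDH3 share 957 (95.8%), TDH1 and TDH2 901 (90.2%), and TDH1 and TDH3 888 (88.9%). The longest identical run is 173 bases between TDH2 and TDH3, 129 between TDH1 and TDH2 and 92 between TDH1 and TDH3. The 90-base coding stretch in which TDH2 and TDH3 differ most (13 positions, coding bases 34 to 123) is printed because it shows what lets a read be given to a single isozyme gene. Capitals mark the 25 positions at which the 3 genes are not all alike, and each sequence runs 5′ to 3′ along its own gene.
TDH1, chrX:338304-338393, forward strand: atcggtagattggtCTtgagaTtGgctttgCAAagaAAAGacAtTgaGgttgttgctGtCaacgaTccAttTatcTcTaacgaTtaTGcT
TDH2, chrX:454559-454648, reverse strand: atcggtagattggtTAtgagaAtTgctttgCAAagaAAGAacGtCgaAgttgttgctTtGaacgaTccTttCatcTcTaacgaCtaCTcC
TDH3, chrVII:883688-883777, reverse strand: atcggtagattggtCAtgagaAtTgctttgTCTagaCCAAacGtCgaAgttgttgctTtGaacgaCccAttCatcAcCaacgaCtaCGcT
These are S288c bases, and the YPS1009 alleles to which reads were mapped may differ from them. Of all 100-base windows in the coding sequence, 95.4% in TDH1, 87.2% in TDH2 and 91.8% in TDH3 occur once in the R64 genome, and for 50-base windows the shares are 84.3%, 68.7% and 75.6%. The read length is not given in the sources used here, so how many TDH2 and TDH3 reads could be exchanged is not known, and their counts are uncertain to that extent. For TDH1 the data set a limit: in the 10 log-phase libraries it held between 0.00835% and 0.127% of the counts on the 3 genes, so at most that share of TDH2 and TDH3 reads can have been given to TDH1 in log phase.

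The upstream 300-base windows that end 150 bases before each start codon are printed because TDH1 moved differently with time from TDH2 and TDH3. Capitals mark AGGGG, the core of the stress response element read by Msn2 and Msn4, and CTTCC, the core recognised by the glycolytic activator Gcr1, on either strand (CCCCT and GGAAG are the same motifs in reverse).
TDH1, chrX:337821-338120, forward strand: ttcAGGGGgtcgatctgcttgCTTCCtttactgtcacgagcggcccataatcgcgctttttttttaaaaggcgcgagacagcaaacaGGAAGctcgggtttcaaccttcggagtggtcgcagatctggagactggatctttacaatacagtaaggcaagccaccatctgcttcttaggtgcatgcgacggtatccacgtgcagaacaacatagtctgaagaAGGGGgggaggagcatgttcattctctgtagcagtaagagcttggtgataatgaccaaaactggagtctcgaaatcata
TDH2, chrX:454832-455131, reverse strand: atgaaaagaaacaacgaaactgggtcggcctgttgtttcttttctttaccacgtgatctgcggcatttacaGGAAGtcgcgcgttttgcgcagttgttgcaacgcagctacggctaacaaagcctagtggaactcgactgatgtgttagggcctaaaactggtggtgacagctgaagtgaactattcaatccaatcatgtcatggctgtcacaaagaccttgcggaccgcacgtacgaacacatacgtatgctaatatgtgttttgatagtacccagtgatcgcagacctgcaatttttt
TDH3, chrVII:883961-884260, reverse strand: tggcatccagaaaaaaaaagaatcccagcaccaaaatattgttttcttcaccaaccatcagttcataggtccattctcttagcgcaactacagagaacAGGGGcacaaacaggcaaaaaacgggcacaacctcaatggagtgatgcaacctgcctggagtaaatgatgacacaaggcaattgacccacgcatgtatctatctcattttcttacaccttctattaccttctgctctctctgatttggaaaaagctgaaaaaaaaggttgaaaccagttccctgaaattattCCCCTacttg
AGGGG was found 2 times in the TDH1 window (positions -447 and -229, counted back from the start codon), 0 times in that of TDH2 and 2 times in that of TDH3 (positions -352 and -160). CTTCC was found 2 times in the TDH1 window, 1 time in that of TDH2 and 0 times in that of TDH3. Of the same windows of 6019 protein-coding genes, 23.4% hold AGGGG at least 1 time and 3.8% at least 2 times, and 47.7% hold CTTCC at least 1 time and 14.5% at least 2 times. The 2 motifs do not overlap in these windows. The matches describe letters only, and no binding was measured. Bases outside these windows, upstream or downstream, were not searched, so a count of 0 does not mean that a gene lacks the motif in its promoter.

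Library depth was highest in log phase, with 4182717 to 7036849 counts in log phase, 1997415 to 3792145 at day 1, 1033073 to 2228477 at day 3 and 725316 to 2324046 at day 7. Levels are CPM (counts-per-million) after edgeR's trimmed mean of M-values (TMM) scaling. They give a transcript relative to the other S. cerevisiae transcripts of the same library. The study scaled to Schizosaccharomyces pombe cells added to each sample, and the count table holds no S. pombe genes, so a level that rose here need not have risen per cell, and fewer cells and less RNA per cell cannot be told apart. Ratios between the 3 genes within a library do not depend on any scaling. The median log2 ratio to euploid of genes on the duplicated chromosome lay 0.78 to 1.35 above that of all other genes, as the strain names say. The sum of 8 stationary phase genes (SNZ1, SNO1, SPG1, SPG4, HSP12, HSP26, GRE1 and CTT1) was 32.5 to 179.7 CPM in log phase, and 1410 to 32517 CPM at day 1. YPS1009_Chr4 at days 3 and 7 had TMM factors of 0.316 to 0.536, and there the median gene differed from log phase by -0.37 and -0.73 on the log2 scale with TMM, and by -1.72 and -2.52 with total counts alone. The 2 euploid day 7 libraries stood apart from each other (chi-square per degree of freedom of 69.4, against 3.05 to 18.7 in the other groups), and their marker sums were 31369.7 and 9049 CPM.

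TDH1 was nearly silent in log phase and among the most abundant transcripts at day 1, where it ranked between 1 and 38 of 5988 protein-coding genes per coding length. In euploid cultures it was at 3.81 and 2.91 CPM in log phase, 11653 and 18303 CPM at day 1, 594 and 999 CPM at day 3 and 141 and 225 CPM at day 7. In YPS1009_Chr4 it was at 3.76 and 6.77 CPM in log phase, 11624 and 12929 CPM at day 1, 1979 and 5056 CPM at day 3 and 331 and 1457 CPM at day 7. In both strains the day 1 values lay far above those of log phase, and levels then came down without returning to log-phase values. In YPS1009_Chr14, TDH1 was at 5.40 and 3.20 CPM in log phase, 28995 and 33946 CPM at day 1, 842 and 789 CPM at day 3 and 48.0 and 76.3 CPM at day 7. In YPS1009_Chr15 it was at 21.97 and 32.9 CPM in log phase, 11298 and 16980 CPM at day 1, 274 and 362 CPM at day 3 and 71.2 and 46.0 CPM at day 7. These 2 strains had the lowest day 7 levels of the 5. YPS1009_Chr12 reached its highest level at day 3 and not at day 1, with 5.89 and 8.25 CPM in log phase, 2600.5 and 2137 CPM at day 1, 4347 and 4856 CPM at day 3 and 949 and 1253 CPM at day 7. Counting whole reads, TDH1 had 12 to 45 counts in the log-phase libraries of 4 strains and 177 and 173 in those of YPS1009_Chr15, so the size of the day 1 changes rests on small log-phase counts.

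Against log phase, TDH1 rose in 15 of 15 comparisons (quasi-likelihood test of edgeR over 5864 genes, with Benjamini-Hochberg adjustment and a threshold of 0.05). At day 1 the log2 change and its standard error were 12.80 ± 0.77 in YPS1009_Chr14, 11.18 ± 0.73 in YPS1009_Chr4, 9.01 ± 0.66 in YPS1009_Chr15, 8.39 ± 0.66 in YPS1009_Chr12 and 12.09 ± 0.76 in euploid, with adjusted p-values of at most 7.5e-12. That is a 4356-fold rise in euploid. At day 7 the change ranged from 1.11 in YPS1009_Chr15 to 7.40 in YPS1009_Chr4. The YPS1009_Chr15 day 7 call (1.11 ± 0.50, adjusted p = 0.0423) is the weak one: it was lost without log-phase replicate 1 or day 7 replicate 1 of that strain and under 5 other settings, among them the filter of 10 counts in every library, where the change was -0.0038. The other 14 calls held under every setting run. Among all 5864 genes tested, the share called in either direction against log phase was 62.7% for YPS1009_Chr4, 61.8% for YPS1009_Chr12, 67.8% for YPS1009_Chr14, 66.2% for YPS1009_Chr15 and 69.4% for euploid at day 1, 75.8% for YPS1009_Chr4, 64.8% for YPS1009_Chr12, 77.8% for YPS1009_Chr14, 76.4% for YPS1009_Chr15 and 80.1% for euploid at day 3, and 75.8% for YPS1009_Chr4, 73.8% for YPS1009_Chr12, 77.9% for YPS1009_Chr14, 79.3% for YPS1009_Chr15 and 75.7% for euploid at day 7, so most genes were called in these comparisons. Of the 3 isozyme genes, 3 were called in 9 of the 15 comparisons, 2 in 3 and 1 in 3.

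TDH3, the main isozyme of growing cells, ranked first of 5988 protein-coding genes by counts per coding length in all 10 log-phase libraries and declined afterwards. In euploid cultures it was at 27809 and 31856 CPM in log phase, 17429 and 18786 CPM at day 1, 2947 and 3448 CPM at day 3 and 1643 and 419 CPM at day 7. In YPS1009_Chr12 it was at 29905 and 32303 CPM in log phase, 7819 and 6951 CPM at day 1, 7344 and 9397 CPM at day 3 and 2591 and 6084 CPM at day 7. The 2 euploid replicates at day 7 differed by more than the euploid day 3 replicates, and YPS1009_Chr12 had the highest TDH3 levels of the 5 strains at days 3 and 7, both replicates above all libraries of the other strains. In YPS1009_Chr4, TDH3 was at 17359 and 20668 CPM in log phase, 14695 and 15859.5 CPM at day 1, 3928 and 6125 CPM at day 3 and 764 and 1498 CPM at day 7. In YPS1009_Chr14 it was at 28636 and 24035 CPM in log phase, 17837 and 18903 CPM at day 1, 2794 and 2167 CPM at day 3 and 607 and 1061 CPM at day 7. In YPS1009_Chr15 it was at 23223 and 22978 CPM in log phase, 15542 and 16769.9 CPM at day 1, 1829 and 1671 CPM at day 3 and 1504 and 1384 CPM at day 7. At day 1, TDH3 was still among the 4 highest genes per length in every library, and at day 7 its rank lay between 15 and 410.

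TDH3 fell against log phase in 11 of 15 comparisons, namely at days 3 and 7 in all 5 strains and at day 1 in YPS1009_Chr12 (-2.07 ± 0.45, adjusted p = 0.000232). At day 1 the change in the other strains was -0.32 ± 0.44 in YPS1009_Chr4, -0.52 ± 0.44 in YPS1009_Chr14, -0.52 ± 0.44 in YPS1009_Chr15 and -0.72 ± 0.44 in euploid, none past the threshold. At day 3 it ranged from -3.72 in YPS1009_Chr15 to -1.89 in YPS1009_Chr12, with -3.22 ± 0.47, adjusted p = 4.2e-07 in euploid. At day 7 it ranged from -4.98 in YPS1009_Chr14 to -2.84 in YPS1009_Chr12, with -4.86 ± 0.51, adjusted p = 1.1e-09 in euploid.

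TDH2, the close relative of TDH3, made up 7.00% to 10.8% of the counts on the 3 genes in log phase and was lower in all 5 strains by day 7. In euploid cultures it was at 2718 and 3024 CPM in log phase, 2804 and 3749 CPM at day 1, 292 and 381 CPM at day 3 and 228 and 245 CPM at day 7. In YPS1009_Chr12 it was at 3522 and 3803 CPM in log phase, 1989 and 1903 CPM at day 1, 1822 and 2266 CPM at day 3 and 218 and 307 CPM at day 7. YPS1009_Chr12 thus kept TDH2 at day 3 at a level that overlapped its own day 1 values, while in euploid the day 3 values lay below both day 1 values. In YPS1009_Chr4, TDH2 was at 1449 and 1557 CPM in log phase, 2195 and 2308 CPM at day 1, 456 and 1366 CPM at day 3 and 163 and 632 CPM at day 7. In YPS1009_Chr14 it was at 3366 and 2795 CPM in log phase, 5654 and 7327 CPM at day 1, 307 and 252 CPM at day 3 and 111 and 131 CPM at day 7. In YPS1009_Chr15 it was at 2539.8 and 2797 CPM in log phase, 2589.7 and 3244 CPM at day 1, 241 and 218 CPM at day 3 and 179 and 155 CPM at day 7. Of the 15 comparisons with log phase, TDH2 fell in 9 and rose in 1. The falls were at day 7 in all 5 strains, at day 3 in YPS1009_Chr14 (-3.46), YPS1009_Chr15 (-3.54) and euploid (-3.09 ± 0.42, adjusted p = 1.2e-07), and at day 1 in YPS1009_Chr12 (-0.91 ± 0.39, adjusted p = 0.0435). The 1 rise was at day 1 in YPS1009_Chr14 (1.08 ± 0.39, adjusted p = 0.0166). Both day 1 calls are weak: that of YPS1009_Chr12 was lost without any 1 of its 4 libraries, and that of YPS1009_Chr14 without replicate 2 of either group and under 4 other settings.

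**Figure D1:**
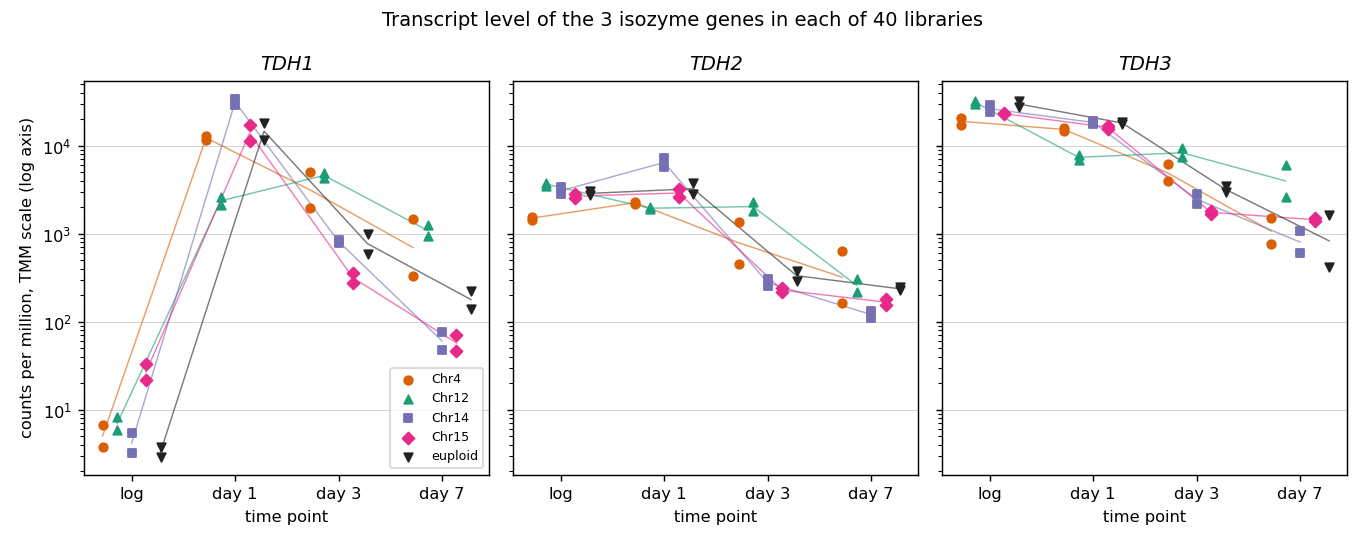
Transcript level of TDH1, TDH2 and TDH3 in CPM (counts-per-million) on the TMM scale (y axis, log scale) at each time point (x axis), with 1 point per library and a line through the geometric means of the 2 replicates of each strain. TDH1 lies between 2.91 and 32.9 CPM in log phase and between 2137 and 33946 CPM at day 1, while TDH3 lies between 17359 and 32303 CPM in log phase and between 419 and 6084 CPM at day 7.

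Because the 3 coding sequences have the same length, shares of the counts on the 3 genes need no length correction and do not depend on scaling between libraries, though they carry the uncertainty in assigning reads between TDH2 and TDH3. In log phase TDH3 held 89.0% to 93.0% of the counts on the 3 genes, TDH2 7.00% to 10.8% and TDH1 at most 0.127%. At day 1 the share of TDH1 was 40.8% and 41.6% for YPS1009_Chr4, 21.0% and 19.4% for YPS1009_Chr12, 55.2% and 56.4% for YPS1009_Chr14, 38.4% and 45.9% for YPS1009_Chr15 and 36.5% and 44.8% for euploid. TDH1 was thus above TDH2 in 10 of 10 day 1 libraries and above TDH3 in 3 of 10, both of YPS1009_Chr14 and 1 of YPS1009_Chr15. At day 3 the share of TDH1 was between 11.7% and 40.3%, and TDH1 was above TDH2 in 10 of 10 libraries and above TDH3 in 0 of 10. At day 7 the share was 26.3% and 40.6% for YPS1009_Chr4, 25.3% and 16.4% for YPS1009_Chr12, 6.27% and 6.02% for YPS1009_Chr14, 4.06% and 2.90% for YPS1009_Chr15 and 7.01% and 25.3% for euploid. By then TDH1 was above TDH2 in 4 of 10 libraries, those of YPS1009_Chr4 and YPS1009_Chr12. The 2 euploid day 7 libraries lay far apart.

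**Figure D2:**
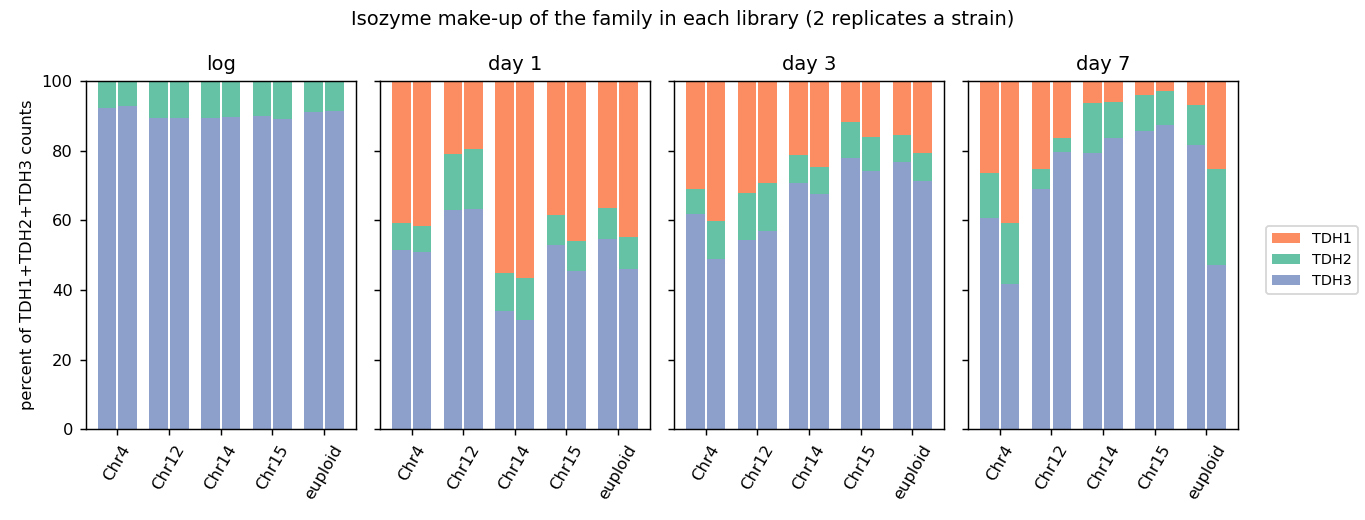
Share of the counts on TDH1, TDH2 and TDH3 that falls on each gene (y axis, percent) in every library, with 1 stacked bar per library, 2 per strain, in 4 panels by time point. TDH1 is not visible in log phase (at most 0.127%) and holds 19.4% to 56.4% at day 1, 11.7% to 40.3% at day 3 and 2.90% to 40.6% at day 7.

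The ratios were tested over libraries with an exact two-sided permutation test in which day and log-phase labels were exchanged within strains (smallest possible p 0.000257, 12 tests adjusted together, 0.5 counts added). The log2 ratio of TDH1 to TDH3 was higher than in log phase by a mean over strains of 11.53 at day 1, 10.36 at day 3 and, in 5 of 5 strains each time, 9.26 at day 7 (adjusted p = 0.000343 for each). At day 7 the strains ranged from 5.09 to 11.23. The ratio of TDH2 to TDH3 also shifted, by far less: it was higher by 1.04 at day 1, in 5 of 5 strains (exact permutation test, adjusted p = 0.000343), by 0.47 at day 3, in 4 of 5 strains (adjusted p = 0.0037), and by 0.60 at day 7, in 4 of 5 strains, which did not pass (adjusted p = 0.105). The share of all counts that fell on the 3 genes together was 2.35% to 3.52% in log phase, 1.44% to 6.29% at day 1, 0.243% to 2.12% at day 3 and 0.0398% to 0.698% at day 7. On the log2 scale it differed from log phase by 0.13 at day 1, with 4 of 5 strains in that direction (exact permutation test, adjusted p = 0.493), and was lower by a mean of -2.59 at day 3 and -4.19 at day 7, in 5 of 5 strains (adjusted p = 0.000343 for each). At day 1 the strains ranged from -1.18 in YPS1009_Chr12 to 0.97 in YPS1009_Chr14.

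Consecutive samplings were compared as well. Between days 1 and 3, all 3 genes fell in YPS1009_Chr4, YPS1009_Chr14, YPS1009_Chr15 and euploid, and 0 of 3 were called in YPS1009_Chr12 by edgeR's adjusted p (0 at an unadjusted p under 0.05, and 0 by DESeq2). The log2 ratio of day 3 to day 1 for TDH1 was -5.27 ± 0.56 in YPS1009_Chr14, -5.47 ± 0.56 in YPS1009_Chr15, -1.80 ± 0.48 in YPS1009_Chr4 and -4.23 ± 0.53 in euploid, against 0.96 ± 0.47, adjusted p = 0.346 in YPS1009_Chr12. Under at least 1 other setting this difference in YPS1009_Chr12 was called as a rise. Between days 3 and 7, TDH1 fell in all 5 strains, with log2 ratios of -3.73 in YPS1009_Chr14 to -1.98 in YPS1009_Chr4. In that interval TDH2 fell in YPS1009_Chr12 (-2.95 ± 0.42, adjusted p = 2.0e-06) and YPS1009_Chr4 (-1.20 ± 0.41, adjusted p = 0.0339), and TDH3 in YPS1009_Chr4 (-2.15), YPS1009_Chr14 (-1.57 ± 0.45, adjusted p = 0.0397) and euploid (-1.64 ± 0.45, adjusted p = 0.00554). The euploid TDH3 call was lost without euploid day 7 replicate 2, the YPS1009_Chr14 one without any 1 of its 4 libraries, and the TDH1 and TDH2 calls in YPS1009_Chr4 without day 7 replicate 1 or day 3 replicate 2. When only the groups compared were fitted in edgeR, 4 calls between days 3 and 7 no longer passed, those of TDH1 (adjusted p = 0.295) and TDH3 (adjusted p = 0.338) in euploid and of TDH1 (adjusted p = 0.0531) and TDH2 (adjusted p = 0.187) in YPS1009_Chr4. That TDH2 call was also lost with DESeq2 size factors, the DESeq2 Wald test and no filter, and the TDH3 call of YPS1009_Chr14 with total counts. The TDH1 and TDH2 calls of YPS1009_Chr4 between days 1 and 3 were lost without day 3 replicate 1. Of all genes tested, 67.0% for YPS1009_Chr4, 3.14% for YPS1009_Chr12, 59.9% for YPS1009_Chr14, 56.6% for YPS1009_Chr15 and 67.2% for euploid were called between days 1 and 3, and 20.6% for YPS1009_Chr4, 52.1% for YPS1009_Chr12, 4.04% for YPS1009_Chr14, 15.8% for YPS1009_Chr15 and 35.3% for euploid between days 3 and 7.

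Each aneuploid was then compared with euploid at the same time point. Across the 16 comparisons, TDH1 was called in 9 (5 higher, 4 lower), TDH3 in 3 (2 higher, 1 lower) and TDH2 in 2 (both higher). In log phase 1 of the 12 tests passed, that of TDH1 in YPS1009_Chr15. All 4 aneuploids were set against the same 2 euploid libraries at each sampling, so these comparisons are not independent. Where groups are said below to overlap or not, that describes the values only, since 2 against 2 libraries often separate without a difference. How many of all genes separate in the same comparison was not counted. The share of all tested genes called was 9.65% for YPS1009_Chr4, 8.13% for YPS1009_Chr12, 5.01% for YPS1009_Chr14 and 15.1% for YPS1009_Chr15 in log phase, 17% for YPS1009_Chr4, 31.0% for YPS1009_Chr12, 6.74% for YPS1009_Chr14 and 4.69% for YPS1009_Chr15 at day 1, 31.0% for YPS1009_Chr4, 69.8% for YPS1009_Chr12, 15.2% for YPS1009_Chr14 and 28.9% for YPS1009_Chr15 at day 3 and 54.4% for YPS1009_Chr4, 33.2% for YPS1009_Chr12, 16.3% for YPS1009_Chr14 and 29.9% for YPS1009_Chr15 at day 7. The number of isozyme genes called at these 4 samplings was 0, 0, 2 and 1 of 3 in YPS1009_Chr4, 0, 2, 3 and 2 of 3 in YPS1009_Chr12, 0, 0, 0 and 1 of 3 in YPS1009_Chr14, and 1, 0, 1 and 1 of 3 in YPS1009_Chr15. Whether the change from log phase itself differed from that of euploid was tested as an interaction, for which 3.39% for YPS1009_Chr4, 16% for YPS1009_Chr12, 1.07% for YPS1009_Chr14 and 3.80% for YPS1009_Chr15 of all genes were called at day 1, 20% for YPS1009_Chr4, 59.3% for YPS1009_Chr12, 3.43% for YPS1009_Chr14 and 24.9% for YPS1009_Chr15 at day 3 and 40.9% for YPS1009_Chr4, 18.1% for YPS1009_Chr12, 4.35% for YPS1009_Chr14 and 13.6% for YPS1009_Chr15 at day 7.

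YPS1009_Chr12 had 7 of the 14 calls against euploid, 2 of them lower, both at day 1, and 5 higher, at days 3 and 7. At day 1 TDH1 was at 2600.5 and 2137 CPM in YPS1009_Chr12, against 11653 and 18303 CPM in euploid, and the groups did not overlap. Its log2 difference was -2.66 ± 0.50, adjusted p = 0.000143, or 6.32-fold lower. TDH3 was also lower (-1.29 ± 0.44, adjusted p = 0.0255), a call lost without any 1 of the 4 libraries, and TDH2 did not pass (-0.75 ± 0.39, adjusted p = 0.146). At day 3 all 3 genes were higher in YPS1009_Chr12 than in euploid, TDH2 by 2.60 ± 0.41, adjusted p = 3.1e-06, TDH1 by 2.53 ± 0.49, adjusted p = 5.2e-05 and TDH3 by 1.39 ± 0.44, adjusted p = 0.00676, in a comparison in which 69.8% of all genes were called and the median gene differed by 0.22 with TMM and 0.81 with total counts. The TDH3 call was lost without euploid day 3 replicate 1. At day 7 TDH1 (2.58 ± 0.50, adjusted p = 0.000221) and TDH3 (2.08 ± 0.45, adjusted p = 0.000813) were higher, and TDH2 differed by 0.16 ± 0.40, adjusted p = 0.803. Both day 7 calls were lost when only the groups compared were fitted. Without euploid day 7 replicate 1 the differences were 2.29 for TDH1 and 3.37 for TDH3, and without replicate 2 they were 2.97 and 1.40. The time response differed from that of euploid for TDH1 at day 1 (-3.70 ± 0.77, adjusted p = 0.00104), TDH2 at day 3 (2.25 ± 0.56, adjusted p = 0.00111) and TDH3 at day 7 (2.02 ± 0.62, adjusted p = 0.0229). The TDH3 call was lost without any 1 of 5 of its 8 libraries (1.27 to 3.31 over all 8) and when only the groups compared were fitted (adjusted p = 0.439 in edgeR), while the other 2 held under every setting run. Beside the day 1 result, the sum of the 8 stationary phase genes was 1409.7 and 1564 CPM in YPS1009_Chr12, against 28192 and 32517 CPM in euploid, with 4 of 8 lower (CTT1, GRE1, HSP12 and HSP26) and 4 not passing (31.0% of all genes called). At day 3 the sum was 4880.2 and 4914 CPM in YPS1009_Chr12, against 69369.9 and 59809.5 CPM in euploid, with 6 of 8 lower and 1 higher, SNO1. Their part in the results was not tested.

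YPS1009_Chr4 had 0 of 3 genes called in log phase and at day 1 and more TDH1 than euploid later. At an unadjusted p under 0.05, edgeR gave 1 in log phase and 0 at day 1, and DESeq2 called 0. Its log-phase TDH2 did not overlap that of euploid, with 1449 and 1557 CPM in YPS1009_Chr4, against 2718 and 3024 CPM in euploid, and did not pass (-0.93 ± 0.39, adjusted p = 0.135). At day 3 TDH1 was at 1979 and 5056 CPM in YPS1009_Chr4, against 594 and 999 CPM in euploid. At day 7 it was at 331 and 1457 CPM, against 141 and 225 CPM in euploid. The groups did not overlap at either day, though the YPS1009_Chr4 replicates were far apart. The differences were 2.14 ± 0.49, adjusted p = 0.00104 at day 3 and 2.28 ± 0.50, adjusted p = 0.000378 at day 7, and each was lost without YPS1009_Chr4 replicate 2 of that day (1.31 and 0.80). Without euploid day 7 replicate 1 or 2 the day 7 difference was 1.98 or 2.66. TDH2 was higher at day 3 (1.44 ± 0.40, adjusted p = 0.00648), a call lost without euploid day 3 replicate 1 or YPS1009_Chr4 day 3 replicate 2, and did not pass at day 7 (0.74 ± 0.41, adjusted p = 0.122). TDH3 passed at neither day. With total counts in place of TMM, TDH2 and TDH3 at day 7 were lower than in euploid (-1.08 and -1.46), TDH2 at day 3 no longer passed and TDH1 at day 7 differed by 0.39, while the median of all genes at day 7 differed by -0.59 with TMM, -2.48 with total counts and -0.34 with DESeq2 size factors. The direction of TDH2 and TDH3 at day 7 in this strain thus changes with the scaling. The marker sum at day 7 was 71199 and 73543 CPM in YPS1009_Chr4, against 31369.7 and 9049 CPM in euploid, with 5 of 8 higher and 2 lower (54.4% of all genes called), and its part in the results was not tested. The response of TDH2 differed from that of euploid at day 3 (2.37 ± 0.56, adjusted p = 0.00291) and day 7 (1.68 ± 0.56, adjusted p = 0.0189). Both calls were lost with total counts and without YPS1009_Chr4 replicate 2 of that day, and the day 7 call under 3 further settings. The log2 ratio of TDH1 to TDH2 was higher in YPS1009_Chr4 than in euploid by 1.02 on average, in 4 of 4 time points and whatever the scaling (exact permutation test within time points, adjusted p = 0.0247 over 16 tests). That call was lost with the median over time points in place of the mean (1.15, adjusted p = 0.148). It also did not pass without the libraries of YPS1009_Chr4 at days 3 and 7 and euploid at day 7 (0.89, adjusted p = 0.173). The same held when libraries were paired by replicate number (1.02). These last settings cannot decide. Leaving out those libraries leaves too few arrangements of labels for any p under 0.05. Pairing leaves too few for 1 of 16 tests to pass by itself.

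YPS1009_Chr15 had more TDH1 than euploid in log phase and less at days 3 and 7. In log phase TDH1 was at 21.97 and 32.9 CPM in YPS1009_Chr15, against 3.81 and 2.91 CPM in euploid, 7.95-fold higher (2.99 ± 0.58, adjusted p = 0.000413), and all other log-phase libraries lay at or below 8.25 CPM. TDH2 and TDH3 did not pass there (-0.11 and -0.37). At day 1 no isozyme gene was called, with TDH1 at 11298 and 16980 CPM in YPS1009_Chr15 and 11653 and 18303 CPM in euploid. TDH1 was then lower at day 3 (-1.32 ± 0.48, adjusted p = 0.038) and day 7 (-1.65 ± 0.50, adjusted p = 0.0124). The day 3 call was lost without either YPS1009_Chr15 replicate or euploid replicate 2 and under 5 other settings, and the day 7 call without replicate 2 of either group (-1.26 without that of euploid) and when only the groups compared were fitted. The response of TDH1 differed from that of euploid at day 1 (-3.07 ± 0.74, adjusted p = 0.0119), day 3 (-4.31 ± 0.75, adjusted p = 0.000115) and day 7 (-4.64 ± 0.76, adjusted p = 0.000134), each measured from the higher log-phase level. The day 1 call was lost without any 1 of 5 of its 8 libraries. Of the 14 other glycolytic genes, 3 were higher in the log-phase libraries and 0 lower, where 15.1% of all genes were called and 11.4% were higher. HXK1 was higher by 6.48 ± 0.37 (adjusted p = 1.3e-13), GLK1 by 3.02 ± 0.38 (adjusted p = 8.0e-07) and PYK2, which lies on the duplicated chromosome XV, by 3.18 ± 0.32 (adjusted p = 1.6e-08). Of the 8 regulators, 1 was higher, the stress regulator MSN4 (3.18 ± 0.34, adjusted p = 3.5e-08), 0 were lower and 7 did not pass. The marker sum was 179.7 and 160.3 CPM in YPS1009_Chr15, against 37.5 and 41.7 CPM in euploid, with 2 of 8 markers higher (HSP12 and CTT1) and 6 not passing. In log phase YPS1009_Chr14 also lay above euploid in this sum, at 113.0 and 105.8 CPM, with TDH1 at 5.40 and 3.20 CPM. The part of these genes in the TDH1 result was not tested.

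YPS1009_Chr14 had 1 of the 14 calls against euploid. TDH1 at day 1 was at 28995 and 33946 CPM in YPS1009_Chr14, against 11653 and 18303 CPM in euploid, the highest TDH1 levels of the series with no overlap, but the difference did not pass (1.07 ± 0.47, adjusted p = 0.219). TDH2 at day 1 likewise did not overlap and did not pass (0.99 ± 0.39, adjusted p = 0.151). The 1 call was TDH1 at day 7 (-1.58 ± 0.50, adjusted p = 0.0271), with 48.0 and 76.3 CPM in YPS1009_Chr14 and 141 and 225 CPM in euploid. It was lost without either YPS1009_Chr14 day 7 replicate, without euploid day 7 replicate 2 (-1.20), and when only the groups compared were fitted. Of the 9 interaction tests in this strain, 0 passed in edgeR or DESeq2, and 1 had an unadjusted p under 0.05 in edgeR, that of TDH1 at day 7.

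Ordered by level within a time point, the strains overlapped in many places. In log phase, TDH1 was highest in YPS1009_Chr15, with no overlap, while YPS1009_Chr12, YPS1009_Chr4, YPS1009_Chr14 and euploid followed, each overlapping the next. At day 1 the order was YPS1009_Chr14, then euploid, YPS1009_Chr15 and YPS1009_Chr4, which overlapped each other in turn, and then YPS1009_Chr12 apart. At days 3 and 7, YPS1009_Chr12 and YPS1009_Chr4 were highest and overlapped each other, apart from the other 3 strains. Over all 20 groups, neighbours in the order overlapped in 11 of 19 pairs for TDH1, 12 of 19 for TDH2 and 11 of 19 for TDH3. Such pairs were not counted for other genes, so these counts describe the values only. Apart from the TDH1 to TDH2 ratio in YPS1009_Chr4, none of the other 15 tests of an isozyme ratio or of the family share between an aneuploid and euploid passed. For YPS1009_Chr12 the difference in family share was 0.61 on average and ran from -1.32 at day 1 to 2.39 at day 3 (exact permutation test, adjusted p = 0.974).

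**Figure D3:**
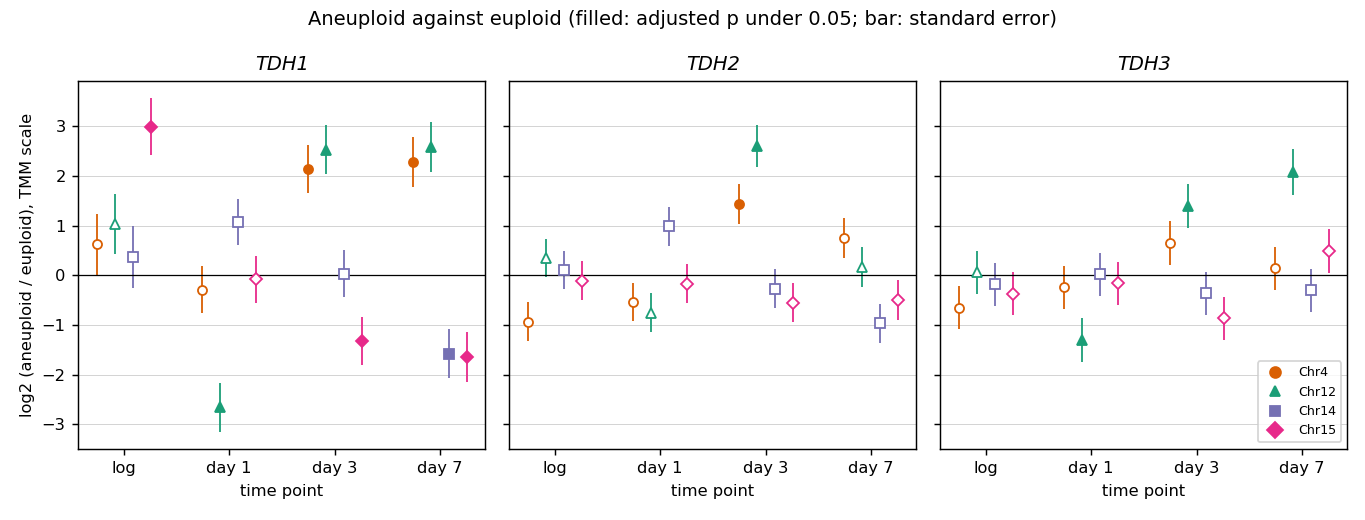
Log2 ratio of each aneuploid to euploid (y axis, TMM scale) for TDH1, TDH2 and TDH3 at each time point (x axis), with bars for the standard error of the edgeR fit and filled symbols for an adjusted p under 0.05. TDH1 in YPS1009_Chr12 lies at -2.66 at day 1 and at 2.53 and 2.58 at days 3 and 7, and TDH1 in YPS1009_Chr15 lies at 2.99 in log phase.

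Other genes of the pathway moved in both directions. Of 14 other genes of glycolysis from hexose phosphorylation to pyruvate kinase, 4 rose in euploid at all 3 days: HXK1 and GLK1, which phosphorylate glucose when it is scarce, ENO1, the enolase isozyme that glucose represses, and PYK2, the minor pyruvate kinase. At day 1 these changes were 7.19 ± 0.38 (adjusted p = 1.7e-15) for HXK1, 6.41 ± 0.62 (adjusted p = 3.1e-10) for ENO1, 5.37 ± 0.42 (adjusted p = 4.7e-12) for GLK1 and 4.53 ± 0.33 (adjusted p = 1.3e-12) for PYK2, each below the 12.09 of TDH1. HXK2, the hexokinase of growth on glucose, and ENO2 fell at day 1, with -4.56 ± 0.48 (adjusted p = 1.5e-09) for HXK2 and -2.54 ± 0.40 (adjusted p = 1.9e-06) for ENO2, and the other 8 did not pass. At day 3, 9 of 14 were lower and 1, PGI1, did not pass (-0.59), and at day 7 10 of 14 were lower. Of all genes in euploid, 69.4%, 80.1% and 75.7% were called at days 1, 3 and 7, and 35.0%, 41.4% and 38.2% were lower. In the aneuploids 7 to 11 of the 14 were lower at day 7 (73.8% to 79.3% of all genes called), and 4 were higher in each of YPS1009_Chr4, YPS1009_Chr12 and YPS1009_Chr14 and 0 in YPS1009_Chr15. The median of the 14 was -0.08, -1.11 and -3.35 at days 1, 3 and 7, against -0.00058, -0.16 and -0.02 over all genes. The neighbours of the dehydrogenase, TPI1 and PGK1, were at -2.97 and -4.37 at day 3, beside -3.22 for TDH3. The 2 genes particular to gluconeogenesis, PCK1 and FBP1, rose at all 3 days in euploid, with changes of 12.06 and 8.36 at day 1.

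**Figure D4:**
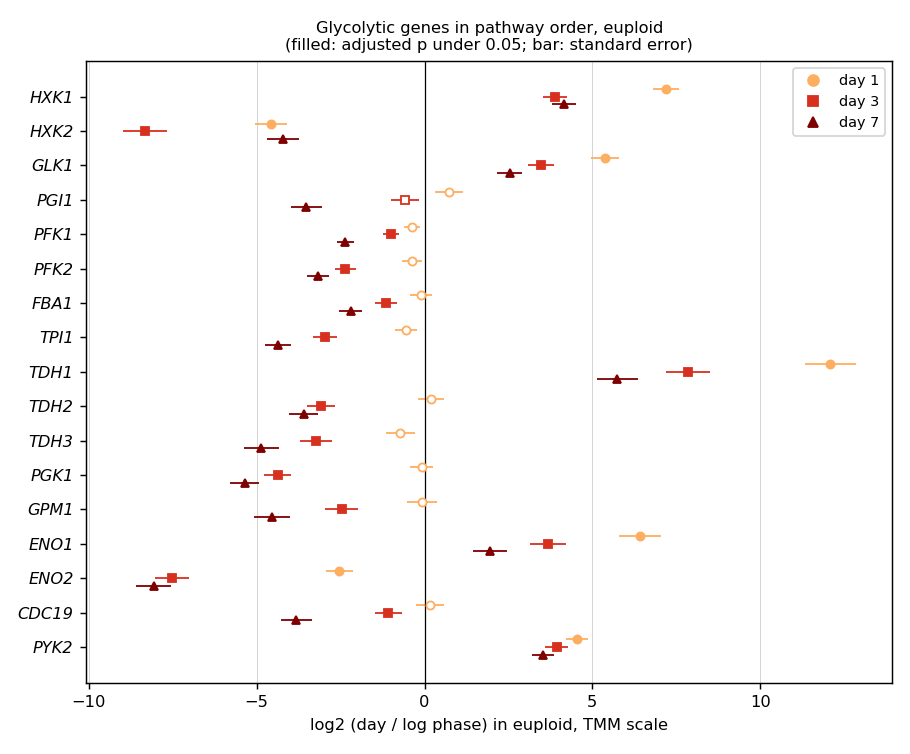
Log2 change from log phase in euploid (x axis, TMM scale) of the glycolytic genes in pathway order (y axis) at days 1, 3 and 7, with bars for the standard error and filled symbols for an adjusted p under 0.05. TDH1 (12.09, 7.86 and 5.75), HXK1, GLK1, ENO1 and PYK2 lie right of 0 at all 3 days, and TDH2 and TDH3 lie with the genes that fell at days 3 and 7.

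In YPS1009_Chr12 compared with euploid, 11 of 14 were lower and 0 higher at day 1 (median -1.14), 9 were higher and 0 lower at day 3 (median 1.26), and 11 were higher and 0 lower at day 7 (median 1.64), with medians over all genes of -0.01, 0.22 and -0.08. Of all genes, 31.0%, 69.8% and 33.2% were called in either direction at these days. At day 3 the number called is thus near the share of all genes, of which 38.4% were higher. PGK1, for instance, differed by -1.52 at day 1 and 2.97 at day 3. In YPS1009_Chr4 on the TMM scale, 8 of 14 were higher and 0 lower at day 3 (median 1.19, with 31.0% of all genes called), and 9 higher and 1 lower at day 7 (median 1.16, with 54.4% of all genes called). The median gene differed there by 0.00 and -0.59 with TMM and by -0.80 and -2.48 with total counts. That shift applies to every gene alike and at day 7 exceeds the median of the 14, so the direction of the list at day 7 depends on the scaling. TPI1, which lies on the duplicated chromosome IV, was among them (1.47 and 1.13). In YPS1009_Chr15, 7 of 14 were lower and 0 higher at day 3, where 28.9% of all genes were called and 11.6% were lower. In YPS1009_Chr14 at most 2 of 14 were called at any sampling, with 5.01% to 16.3% of all genes called. The regulators of these genes were read as well. GCR2, a co-activator of glycolytic genes that lies on chromosome XIV, was higher in YPS1009_Chr14 at all 4 samplings, from 0.78 to 0.90, while RAP1, on the same chromosome, was not called in that strain. In YPS1009_Chr12, 0 of 8 regulators were higher and 4 lower at day 1, 2 higher and 4 lower at day 3, and 3 higher and 2 lower at day 7. Among them, GCR1 differed from euploid by -1.46 ± 0.28 (adjusted p = 0.000245) at day 1, 1.23 ± 0.33 (adjusted p = 0.00176) at day 3 and 1.86 ± 0.40 (adjusted p = 0.000627) at day 7. The list as a whole did not share the directions of GCR1, and its part in the results was not tested. In YPS1009_Chr4 at day 3, on the TMM scale, 5 of 8 regulators were higher and 0 lower, GIS1, on the duplicated chromosome IV, by 2.58 ± 0.27 (adjusted p = 1.3e-08).

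Over the 20 group means of log2 CPM, the gene most like TDH1 was ENO1 (Pearson r = 0.983), followed by PDC6, a minor pyruvate decarboxylase (0.967), NCA3 (0.966), YMR181C (0.958) and UBX6 (0.957). For TDH3 the nearest were PGK1 (0.978), GPM1, the phosphoglycerate mutase (0.971), ENO2 (0.967), TPI1 (0.962) and BMH1, a 14-3-3 protein (0.953), and for TDH2 they were PGK1 (0.975), BMH1 (0.963), CWP2, a cell wall mannoprotein (0.959), GPM1 (0.956) and ERG11, a demethylase of ergosterol synthesis (0.948). TDH2 and TDH3 were alike (0.935), and TDH1 followed neither (0.096 with TDH2 and -0.101 with TDH3). These values describe 20 points that share strains, time points and scaling. By Spearman correlation the 5 nearest genes were GPM1, CDC19, PGK1, PGI1 and PAN1 for TDH2, and ENO2, PGK1, ERG6, TEF2 and GPM1 for TDH3. For TDH1, AQY1 took the place of UBX6. Which genes are nearest, above all for TDH2 and TDH3, thus depends on the measure. By level, ENO1 had a median of 188 CPM in log phase, 15128 CPM at day 1, 2422 CPM at day 3 and 832 CPM at day 7, and PDC6 1.40, 3302, 100.2 and 25.9 CPM at the same samplings. ENO2 had 17970, 3404, 128 and 110.0 CPM. The median of ENO1 was above that of ENO2 at all 3 days and below it in log phase.

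**Figure D5:**
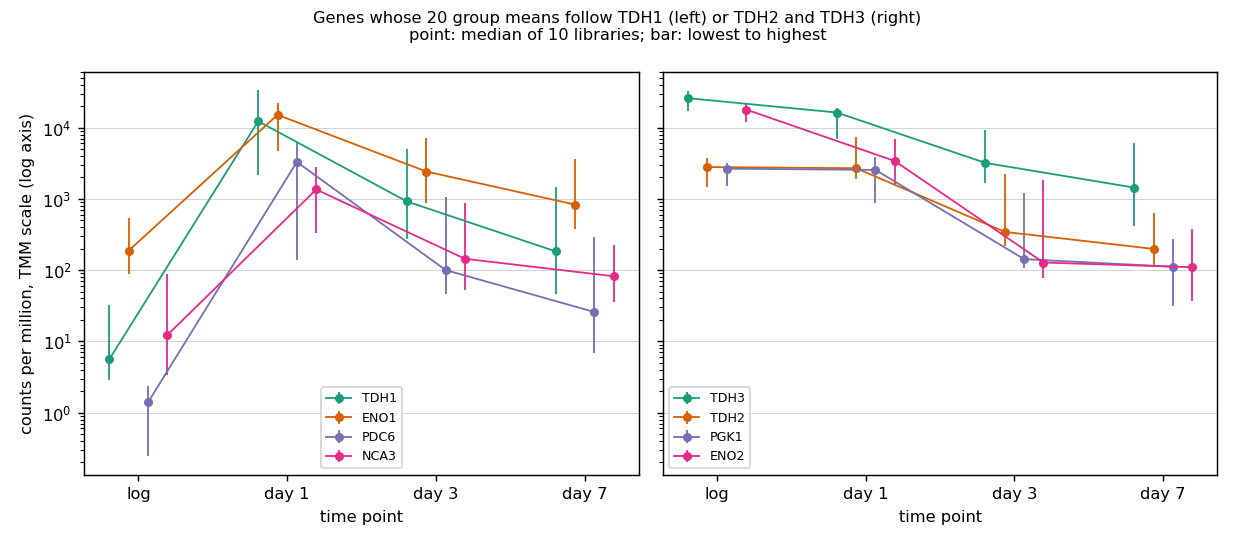
Median level over 10 libraries in CPM (counts-per-million) on the TMM scale (y axis, log scale) at each time point (x axis), with bars from the lowest to the highest library, for TDH1 with ENO1, PDC6 and NCA3 (left) and for TDH3 and TDH2 with PGK1 and ENO2 (right). The left genes peak at day 1 (12291 CPM for TDH1), and the right genes are lower at days 3 and 7 than in log phase.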

How the data were processed

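The authors trimmed reads with Trimmomatic 0.39, mapped them to the S288c genome carrying YPS1009 SNPs (BWA 0.7.12-r1039 in the submitters' processing notes, bwa-meme in the Methods) and deposited raw counts per gene made with HTSeq 0.7.2 from stranded, rRNA-depleted RNA. The release of S288c is not given in the sources used here, so positions are those of R64 alone. The deposited counts cover 6714 genes, 318 without reads, in 40 libraries, and 0 columns were left unused. The labels count hours from the start of culture, the Methods from the log-phase harvest. RefSeq symbols matched 6025 genes.

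Genes with at least 10 counts in 2 libraries (5864) were fitted in edgeR 4.0.16 (quasi-likelihood, TMM, prior count 0.125, R 4.3.3, one coefficient per group), with Benjamini-Hochberg adjustment at 0.05. The standard error is the absolute log2 change over the root of F. Ratios took 0.5 added counts and exact permutation tests. Alternatives were DESeq2 1.42.0, other scalings, filters and prior counts, a replicate block, fits of the groups compared and leaving out each library. Leaving out YPS1009_Chr4 at days 3 and 7 and euploid at day 7 was chosen after seeing the data. The tests were checked on simulated data. Figures used matplotlib. The members and lists were chosen with earlier results of these data known. The rule for named genes was the 3 members, the genes of the glycolysis, gluconeogenesis and regulator lists as counts with examples, and the 5 genes most like each member. List genes named beyond the highest, the lowest and those on a duplicated chromosome, and the stationary phase markers named singly, were chosen after their values were seen. Depth was 725316 to 7036849 counts a library. P-values of edgeR rest on a spread between replicate cultures that was estimated over all 20 groups together and moderated across genes. A group whose 2 cultures lie far apart is thus judged by a shared spread. Permutation p-values come from exchanging labels within strains or time points. No per-cell scale was used.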

Additional observations from a re-analysis of the deposited data

Results flagged for a closer look

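The interaction term of the edgeR fit tested whether a gene's change from log phase in an aneuploid differed from its change in euploid, and 8 of the 36 tests over the 3 genes, 4 strains and 3 days passed the adjusted threshold of 0.05. The background for each is the share of all genes called in the same test, given in the report. It ran from 1.07% for YPS1009_Chr14 at day 1 to 59.3% for YPS1009_Chr12 at day 3. It was 40.9% for YPS1009_Chr4 at day 7 and 3.80% for YPS1009_Chr15 at day 1. Whether the 3 genes were called more often than all genes was not tested. For TDH1 the response differed from that of euploid by -3.70 ± 0.77 at day 1 in YPS1009_Chr12 (adjusted p = 0.00104), and in YPS1009_Chr15 by -3.07 ± 0.74 at day 1 (adjusted p = 0.0119), -4.31 ± 0.75 at day 3 (adjusted p = 0.000115) and -4.64 ± 0.76 at day 7 (adjusted p = 0.000134). For TDH2 it was 2.37 ± 0.56 above that of euploid at day 3 (adjusted p = 0.00291) and 1.68 ± 0.56 at day 7 (adjusted p = 0.0189) in YPS1009_Chr4, and 2.25 ± 0.56 at day 3 in YPS1009_Chr12 (adjusted p = 0.00111). For TDH3 it was 2.02 ± 0.62 above that of euploid at day 7 in YPS1009_Chr12 (adjusted p = 0.0229).

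4 of the 8 held under every setting run: TDH1 at day 1 and TDH2 at day 3 in YPS1009_Chr12, and TDH1 at days 3 and 7 in YPS1009_Chr15. TDH1 at day 1 in YPS1009_Chr15 and TDH3 at day 7 in YPS1009_Chr12 were each lost on leaving out any 1 of 5 of the 8 libraries involved. The TDH3 call was also lost when only the groups compared were fitted (adjusted p = 0.439). For TDH3 the value lay between 1.27 and 3.31 when 1 library was left out. TDH2 at day 3 in YPS1009_Chr4 was 1.37 without YPS1009_Chr4 day 3 replicate 2, and TDH2 at day 7 was 0.36 without YPS1009_Chr4 day 7 replicate 2.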

How the results depend on the processing

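TDH1 was higher than in log phase in 14 to 15 of 15 comparisons with 1 library left out, and TDH3 and TDH2 kept their falls at day 7 under every setting that gave a value. Of 24 counts of calls (3 genes, 4 kinds of comparison, 2 directions), 11 moved by more than 1.5 times when only the groups compared were fitted, 8 without the libraries of YPS1009_Chr4 at days 3 and 7 and euploid at day 7, 4 with total counts, 3 with the DESeq2 Wald test, 3 with 10 counts in every library, 2 with DESeq2 size factors, 2 with no filter, 1 with the replicate block and 0 with a prior count of 2. Over these settings, of which the one without those libraries left fewer comparisons, falls from log phase numbered 8 to 11 for TDH2 and 9 to 14 for TDH3, falls between consecutive samplings 6 to 9 for TDH1, 5 to 6 for TDH2 and 5 to 8 for TDH3, and interactions 3 to 4 lower and 0 to 2 higher for TDH1, 0 to 1 and 1 to 3 for TDH2, and 0 to 1 and 1 to 2 for TDH3. Rises between consecutive samplings numbered 0 to 1 for TDH1, in YPS1009_Chr12 between days 1 and 3, and 0 for TDH2 and TDH3. TDH2 higher than log phase (1 in the report) gave 0 with DESeq2 size factors, the DESeq2 Wald test, no filter or 10 counts in every library, 2 when only the groups compared were fitted or without the libraries of YPS1009_Chr4 at days 3 and 7 and euploid at day 7, and 0 to 1 on leaving out a library. Against euploid, TDH1 lower (4) gave 2 with only the groups compared and 2 to 4 on leaving out a library. TDH2 higher (2) gave 1 with total counts, 4 with only the groups compared, 2 without the libraries named and 1 to 3 on leaving out a library. TDH2 lower (0) gave 1, 2 and 2 under the same settings and 0 to 1 on leaving out a library. TDH3 higher (2) gave 1 with only the groups compared and 1 to 4 on leaving out a library, and TDH3 lower (1) gave 3, 2 without the libraries named and 0 to 2 on leaving out a library. With total counts, YPS1009_Chr4 at day 7 against euploid turned to -1.08 for TDH2 and -1.46 for TDH3, and the TDH2 interaction to -0.44. With 10 counts in every library, TDH1 at day 7 in YPS1009_Chr15 turned to -0.0038. The TDH1 to TDH2 ratio of YPS1009_Chr4 was 1.15 with the median over time points, 1.02 in pairs by replicate number and 0.89 without the libraries named, none of which passed, and its TDH1 to TDH3 ratio ran from 0.73 to 1.39 on leaving out a library and passed 2 times. Pairing by replicate number and leaving out the libraries named left too few label arrangements for the TDH1 to TDH2 ratio to pass by itself. The cause was not tested in any of these results.

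Replicate numbers were not used to pair the samples in the reported fit. Correlations of their deviations were -0.351 to 0.311 over 41 comparisons, 9 above 0.1. Low correlations cannot show that samples with the same replicate number were unrelated. Whether the same culture was sampled at successive days was not tested. The replicate block changed 2 of 159 calls, both newly called: TDH2 at day 3 in YPS1009_Chr12 against log phase (-0.85) and the TDH1 interaction at day 3 in that strain (1.58). For the ratios the block lost 1 call, given above, but with too few arrangements for that call to pass by itself. Where a value did not pass, its sign changed without a call in 14 of 159 values with total counts and 9 with 10 counts in every library. Low log-phase counts of TDH1 and depths down to 725316 counts at day 7 limit the fold changes.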
